A study of Teleogryllus oceanicus with 18 samples.

Results

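Uninfested male *Teleogryllus oceanicus*, a Pacific field cricket, from Kauai were compared with uninfested males from Mangaia to measure how far the populations differed in gene expression before any parasitoid larva was present. The comparison uses 6 of the 18 RNA-seq libraries of the study, namely all 3 uninfested libraries of each population. Each library was made from pooled RNA of 2 sexually mature adult males, so the 6 libraries represent 12 crickets, and the remaining 12 libraries come from crickets collected 4 days (day 4) or 7 days (day 7) after infestation. Every Kauai pool joined 1 flatwing and 1 normal-wing male, whereas the Mangaia pools held normal-wing males alone, so population and wing morph cannot be told apart. Uninfested crickets had been touched with a probe that carried no larvae and were otherwise handled like infested ones. Both colonies were kept in the laboratory without flies, but the Kauai colony was supplemented with offspring of wild-caught females and the Mangaia colony was not. RNA came from the body after removal of head, digestive tract, pronotum, wings and legs. The files carry gene identifiers without product names, so markers of the abdominal tissue were not analysed here, and in such bulk RNA a lower level in a cell and fewer cells of a type cannot be told apart.

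The tachinid fly *Ormia ochracea* finds calling male crickets by their song, and its larvae burrow into the host and feed inside it. It occurs on Kauai and is absent from Mangaia. The flatwing form of Kauai has wings that lack the structures used to sing. Insects meet invaders with a melanization response, in which serine proteases cut an inactive prophenoloxidase into phenoloxidase, the enzyme that oxidizes phenols toward melanin. Peptidoglycan recognition proteins bind bacterial cell walls and start or dampen signalling, and Toll-type receptors pass signals to transcription factors that switch on defence genes. The levels of such genes in unchallenged crickets are the baseline from which a response would start.

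Depth was similar in both populations. Mangaia libraries held 6613687 to 7578004 read pairs in genes and Kauai libraries 6775009 to 7706535. Libraries differed in composition in a way that followed population. The 10 most abundant genes held 15.7% to 17.5% of gene counts in Mangaia and 20.2% to 24.1% in Kauai, and the TMM scaling factors were 0.970 to 1.05 and 0.846 to 0.927. Pairs that fell in more than 1 gene, which are not counted, made up 3.40% ± 0.181 (SD, n = 3) of all pairs in Mangaia and 4.37% ± 0.572 (SD, n = 3) in Kauai, and no Kauai library overlapped a Mangaia library (two-sided exact permutation p = 0.1, the smallest that 3 against 3 libraries can give; 0.4 adjusted over 4 mapping shares). The other mapping shares, of unmapped pairs, of pairs mapped to several places and of pairs in no gene, had exact permutation p-values of 0.6 to 1. The part of these shares in the gene results was not tested. Among the infested libraries, Mangaia day 7 library 2 and Kauai day 7 library 1 stood apart by their numbers of genes with reads (23016 and 24424, against 25328 or more in every other library), and day 7 calls are given with and without them.

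Expression profiles of the populations were, in median, further apart than those of pools within a population. Bray-Curtis dissimilarity, which is 0 for identical and 1 for completely different profiles, was 0.151 to 0.210 over the 9 pairs between populations (median 0.190). Within Mangaia the 3 pairs gave 0.134 to 0.155 (median 0.138), and within Kauai 0.113 to 0.162 (median 0.139). The most distant pair of Kauai pools was therefore further apart than the closest pair between populations. The dissimilarity was computed on untransformed CPM, in which genes with high counts weigh most. Of the summed difference in mean CPM between the populations, MSTRG.22301 held 5.99% and MSTRG.4435 held 5.83%. Population accounted for 46.4% of the summed squared dissimilarity (pseudo-F = 3.46, exact permutation p = 0.1 over all 20 assignments, again the smallest possible). The spread within Kauai was somewhat wider. Over 8514 genes at a mean of 10 CPM or more the median coefficient of variation was 15.1% in Mangaia and 16.7% in Kauai, the common biological coefficient of variation was 0.236 and 0.275, and 4656 genes varied more among Kauai pools against 3857 among Mangaia pools.

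At the level of single genes, 10 of 23748 genes tested (0.0421%) passed a false discovery rate (FDR, Benjamini-Hochberg) of 0.05 and are called differentially expressed (DE; edgeR quasi-likelihood test in 1 model of all 18 libraries). Kauai crickets had 3 of these genes higher (0.0126%) and 7 lower than Mangaia crickets (0.0295% higher in Mangaia). Before adjustment, 3539 genes (14.9%) had a p under 0.05, 1548 higher in Kauai (6.52%) and 1991 higher in Mangaia (8.38%). The groups did not overlap for 6340 genes (26.7%), 3203 with Kauai above (13.5%) and 3137 with Mangaia above (13.2%). The fitted difference was over 2-fold for 3510 genes (14.8%), of which 49.6% had an unadjusted p under 0.05, and the median standard error of a log2 difference over all genes was 0.46.

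The number of DE genes depended on which libraries set the spread. Without the 2 day 7 libraries that stood apart it was 241, of which 152 were higher in Kauai, and the 10 genes were all among them with adjusted p-values of 0.0242 to 0.0273 (edgeR quasi-likelihood test). With the uninfested and day 4 libraries alone it was 232 (170 higher in Kauai), and with only the 6 uninfested libraries it was 415 (277 higher in Kauai). Both of these fits also called all 10 genes. In the fit of all 18 libraries the count was 0 without Kauai uninfested library 1 or 3, 1 without any one of the Mangaia uninfested libraries and 4 without Kauai uninfested library 2. With libraries scaled by their totals alone, 339 of 374 DE genes were higher in Mangaia, a scaling under which the median gene lay at -0.21 on the log2 scale in place of -0.01. The signs of the 10 genes were the same in every alternative run.

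**Figure D1:**
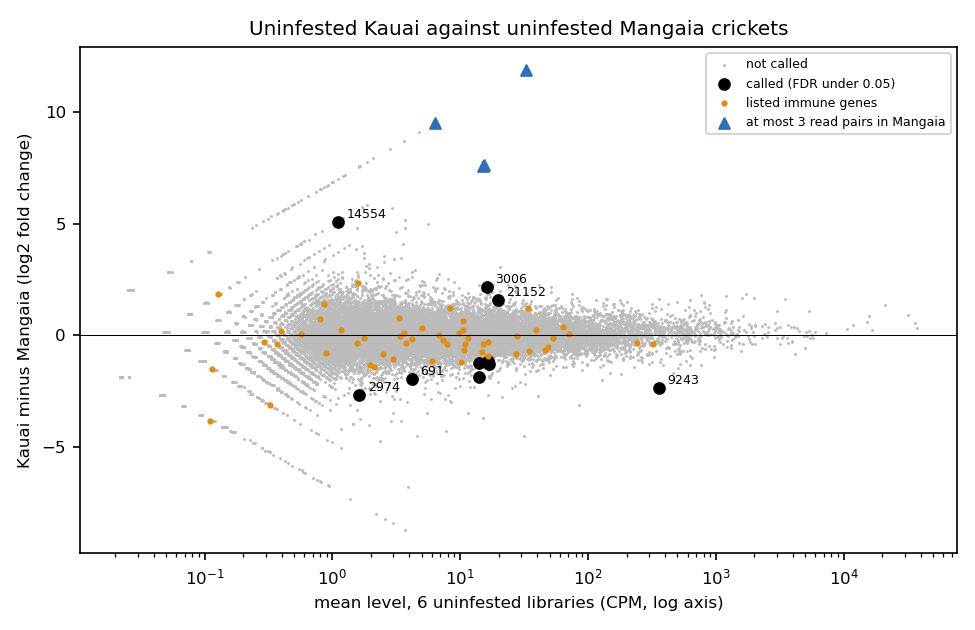
Log2 difference between uninfested Kauai and uninfested Mangaia crickets (y axis, positive where Kauai was higher) against mean level over the 6 uninfested libraries (x axis, CPM, log axis) for each gene tested. Black points are the 10 DE genes, orange points the 53 listed immune genes, and blue triangles the 4 genes with at most 3 read pairs in Mangaia, of which MSTRG.16627 and MSTRG.16196 fall on each other. DE genes lie from 1.11 to 357 CPM, some of them with smaller differences than genes of similar level that were not called. The immune genes lie within the cloud.

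None of the 10 DE genes has a name in the sources used here, so each is described by its identifier and its levels in CPM (read pairs in a gene relative to all read pairs in genes, after TMM scaling), which compare a gene between libraries but not with other genes. MSTRG.9243 had the most reads of the 10. It was measured at 525, 588 and 681 CPM in the Mangaia pools and at 142, 82.9 and 122 CPM in the Kauai pools. The lowest Mangaia pool thus stood well above the highest Kauai pool, and the log2 difference was -2.37 (SE 0.369, adjusted p = 0.0381), 5.18-fold lower in Kauai.

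The next genes that were lower in Kauai had smaller counts. MSTRG.5479 had 23.4, 26.6 and 16.5 CPM in Mangaia and 5.15, 5.90 and 7.28 CPM in Kauai, a log2 difference of -1.86 (SE 0.253, adjusted p = 0.0242). MSTRG.691 had 5.39, 7.49 and 7.17 CPM in Mangaia and 1.83, 1.75 and 1.52 CPM in Kauai, a log2 difference of -1.97 (SE 0.255, adjusted p = 0.0242). These 2 genes had the smallest p-values of the comparison, and their Kauai pools lay close together. MSTRG.2974 had few reads, with 21, 14 and 25 read pairs in the Mangaia pools and 1, 4 and 3 in the Kauai pools, and a log2 difference of -2.69 (SE 0.445, adjusted p = 0.0472).

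A further 3 genes were lower in Kauai by 2.19-fold to 2.45-fold, and adjusted p-values of 0.0381 to 0.0472. MSTRG.10249 was at 23.6, 21.7 and 22.3 CPM in Mangaia and at 12.5, 10.2 and 8.19 CPM in Kauai (log2 difference -1.13, SE 0.184). MSTRG.8464 had 152, 201 and 157 read pairs in Mangaia and 58, 68 and 57 in Kauai (-1.29, SE 0.196). MSTRG.5384 was at 17.6, 22.6 and 19.1 CPM in Mangaia and at 10.5, 8.45 and 6.52 CPM in Kauai (-1.22, SE 0.182). For each of the 3 genes the gap between the groups was wider than the range within either group.

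Kauai crickets had higher levels of 3 DE genes. MSTRG.3006 was at 22.3, 33.3 and 24.0 CPM in Kauai and at 4.74, 5.99 and 7.02 CPM in Mangaia, 4.48-fold higher (log2 difference 2.16, SE 0.350, adjusted p = 0.0472). MSTRG.21152 was at 26.1, 26.6 and 35.6 CPM in Kauai and at 8.16, 10.8 and 11.0 CPM in Mangaia, 2.95-fold higher (log2 difference 1.56, SE 0.242, adjusted p = 0.0381). Every Kauai pool stood above every Mangaia pool by more than the range within Mangaia. MSTRG.14554 was close to absent from Mangaia, with 0, 0 and 1 read pairs against 11, 15 and 15 in Kauai. The ratio of its counts was 46.6, with a 95% counting interval of 7.92 to 1890 that covers counting error only (adjusted p = 0.0472).

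**Figure D2:**
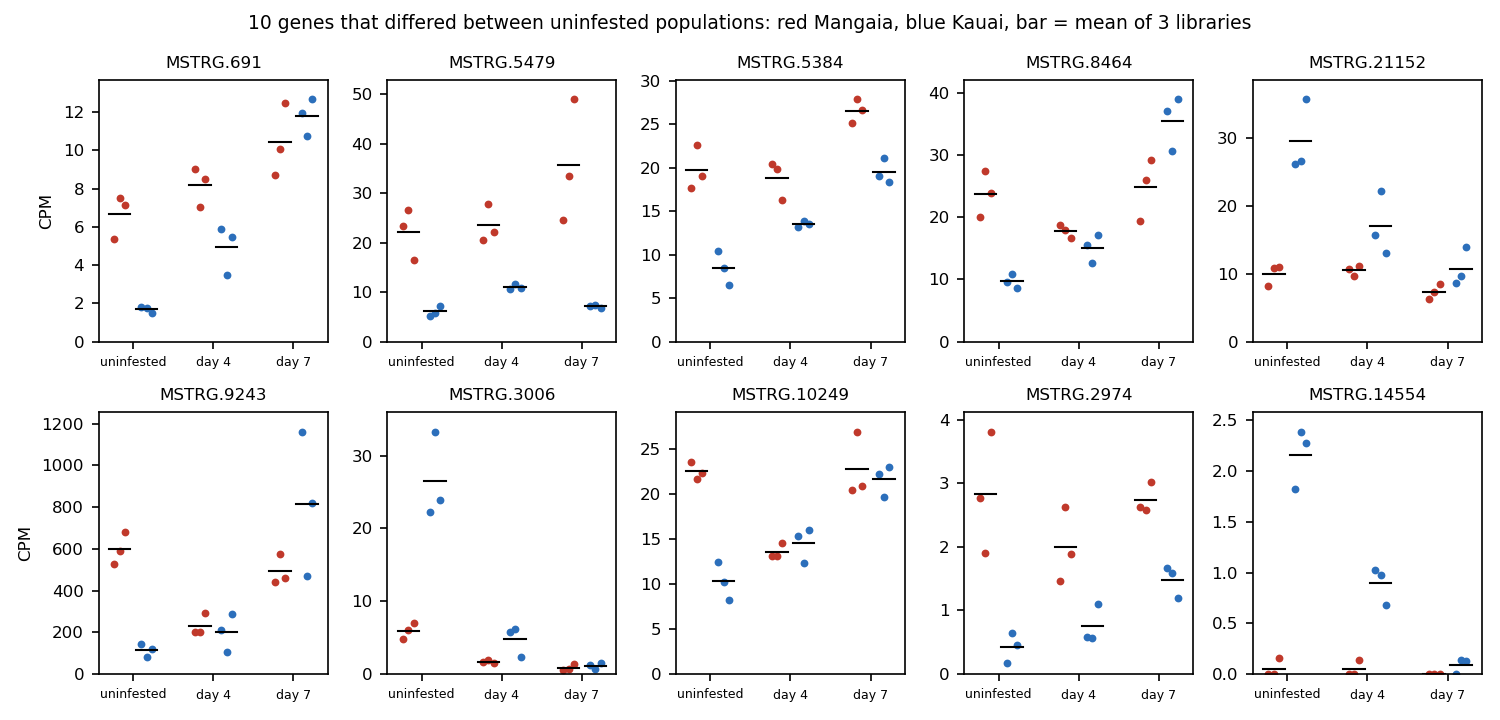
Levels of the 10 DE genes (y axis, CPM, from 0) in every library of uninfested, day 4 and day 7 crickets, with Mangaia in red, Kauai in blue and a bar at the mean of 3 libraries. In uninfested crickets the colours separate in every panel, in the contrast by which the genes were called. At day 7 they remain apart in the uninfested direction for MSTRG.5479, MSTRG.5384, MSTRG.21152 and MSTRG.2974.

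The infested libraries of the same populations did not enter the uninfested contrast that chose these genes, although they helped to set the spread on which the calls rest. At day 4 the difference had the same sign as in uninfested crickets for 9 of the 10 genes, against 52.6% of all genes tested, but none of the 10 was DE at day 4 (edgeR quasi-likelihood test, 0.152% of all genes called). The median difference in the uninfested direction was 0.71 log2 units at day 4. It was 1.91 in uninfested crickets, the contrast that chose the genes, so a lower value elsewhere is not read as an effect of infestation. At day 7 the sign was the same for 7 of the 10 genes, against 44.5% of all genes, the median was 0.43, and 1 gene was DE (3.53% of all genes called). The groups stayed apart in the uninfested direction for 7 of the 10 genes at day 4 (9.04% of all genes) and for 4 at day 7 (10.6%). The same 4 genes were apart at all stages, which held for 0.547% of all genes. The number of genes is small, and the exact 95% intervals of the shares of same sign were 55.5% to 99.7% at day 4 and 34.8% to 93.3% at day 7, if genes are taken as independent. Without the 2 day 7 libraries that stood apart the sign at day 7 was the same for 6 of the 10 genes (44.2% of all genes), and the groups stayed apart for 5 (20.2% of all genes, with 2 libraries in each group). For the 15 genes called by limma voom the share of the same sign was 93.3% at day 4 and 80% at day 7. Sets of 241 or more DE genes from other fits gave lower shares of the same sign at day 4. The share was 67.6% of 513 genes by the likelihood ratio test, 67.7% of 634 genes by DESeq2 and 56.0% of 241 genes without the 2 day 7 libraries (57.7% at day 7). When 405 genes were called in the 6 uninfested libraries and their differences came from a separate fit of the 12 infested libraries, it was 51.4% at day 4, beside 52.7% of all genes, and 59.8% at day 7, beside 43.9%.

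MSTRG.5479 was the only one of the 10 genes that was DE in infested crickets as well, at day 7. Kauai pools were at 10.6, 11.6 and 10.8 CPM at day 4, when Mangaia pools were at 20.7, 27.8 and 22.1 CPM (log2 difference -1.09, adjusted p = 0.0732). At day 7 they were at 7.22, 7.43 and 6.86 CPM against 24.7, 33.4 and 49.0 CPM in Mangaia, a log2 difference of -2.31 (adjusted p = 0.00225, and 0.0387 without the 2 libraries that stood apart). All 9 Kauai libraries were thus below all 9 Mangaia libraries. MSTRG.2974 kept the lower level in Kauai as well, at 0.560 to 1.10 CPM against 1.47 to 2.62 CPM at day 4 and at 1.19 to 1.67 CPM against 2.58 to 3.02 CPM at day 7, with log2 differences of -1.38 and -0.88.

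For other genes the population difference was present in uninfested crickets and small or opposite in infested ones. MSTRG.9243 was at 202, 200 and 292 CPM in Mangaia and 210, 104 and 286 CPM in Kauai at day 4, so the groups overlapped almost completely. At day 7 it was at 441, 577 and 460 CPM in Mangaia and 1162, 468 and 820 CPM in Kauai (log2 difference 0.73, adjusted p = 0.224). The difference at day 7 minus that in uninfested crickets was 3.10 (SE 0.507, adjusted p = 0.0335). MSTRG.8464 went from -1.29 to 0.51, with all Kauai day 7 pools (30.6 to 38.9 CPM) above all Mangaia day 7 pools (19.4 to 29.2 CPM). Its change of 1.81 (SE 0.272) had an adjusted p of 0.0335 as well.

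The change from uninfested to day 7 crickets passed the test for 4 of the 10 genes (2.43% of all genes), MSTRG.9243, MSTRG.8464, MSTRG.691 and MSTRG.10249. MSTRG.10249 was nearly equal in the populations at both infested stages, with log2 differences of 0.10 and -0.07. For MSTRG.691 the difference went from -1.97 through -0.73 at day 4 to 0.18 at day 7. These 4 genes were chosen for a large uninfested difference, and the uninfested libraries enter both the choice of the genes and the change. Without the 2 day 7 libraries that stood apart no gene of the 23384 tested passed the test of this change, the 4 genes had adjusted p-values of 0.0628 to 0.0811 and unadjusted p-values of 3.69e-05 to 0.000559 (edgeR quasi-likelihood test), and 5 instead of 839 genes were DE between populations at day 7.

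MSTRG.3006 and MSTRG.14554 were both higher in uninfested Kauai crickets, and their counts in Kauai were lower at each infested stage. MSTRG.3006 was at 5.72, 6.16 and 2.33 CPM in Kauai and 1.59, 1.93 and 1.48 CPM in Mangaia at day 4, and at no more than 1.45 CPM in any pool at day 7. Kauai pools were still above Mangaia pools at day 4 (log2 difference 1.50, adjusted p = 0.111) and not at day 7. MSTRG.14554 had 7, 7 and 5 read pairs in Kauai against 0, 0 and 1 in Mangaia at day 4 (adjusted p = 0.0763). At day 7 it had 0, 1 and 1 against 0, a depth at which no difference was detectable.

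**Figure D3:**
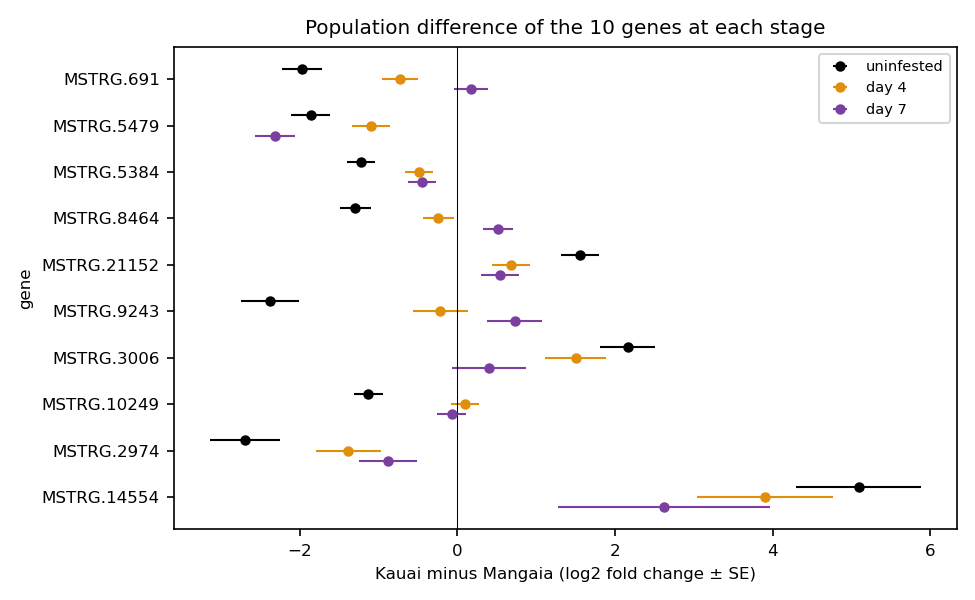
Kauai minus Mangaia log2 difference (x axis, with standard error) of the 10 DE genes (y axis) in uninfested (black), day 4 (orange) and day 7 (purple) crickets. Differences at day 4 lie between the uninfested value and 0 for 9 genes, and only MSTRG.5479 has a day 7 difference (-2.31) beyond its uninfested one (-1.86).

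Genes called in all 3 fits that left out the 2 day 7 libraries that stood apart were also listed, a choice made after the results were seen. There were 149 such genes, 111 higher in Kauai and 38 higher in Mangaia, and the 10 DE genes were among them. Day 4 differences of these 149 genes had the uninfested sign for 49.7% (52.6% of all genes) and day 7 differences for 69.1% (44.5% of all genes). None of the 53 immune genes was among the 149.

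Apart from the 10, the gene with the largest difference toward Mangaia among the 149, at a mean of 10 CPM or more, was MSTRG.19390. It was at 47.6, 58.2 and 75.5 CPM in Mangaia and at 5.15, 2.87 and 0 CPM in Kauai, a log2 difference of -4.51 (SE 0.958) with an adjusted p of 0.0312 in the 6 uninfested libraries and 0.0795 in all 18 (edgeR quasi-likelihood test). Its difference was -4.22 at day 4 (adjusted p = 0.0814) and -1.85 at day 7 (adjusted p = 0.204). MSTRG.10067 was at 854, 761 and 626 CPM in Mangaia and 2060, 2290 and 3810 CPM in Kauai, 3.64-fold higher in Kauai (adjusted p = 0.0307 in the 6 libraries and 0.223 in all 18). In contrast to MSTRG.19390, its difference was -0.26 at day 4 and 0.18 at day 7. MSTRG.3482 behaved like MSTRG.10067, at 9.87, 9.13 and 13.3 CPM in Mangaia and 33.5, 46.5 and 47.6 CPM in Kauai, with differences of 0.43 and 0.66 in infested crickets.

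Reads of some genes were found in Kauai and were almost missing from Mangaia. Of 9159 genes whose mean reached 10 CPM in either population, 4 (0.0437%) had at most 3 read pairs over the 3 libraries of Mangaia, and no gene showed the opposite pattern. MSTRG.575 had 525, 0 and 722 read pairs in the Kauai pools and none in the Mangaia pools, at least 473-fold higher in Kauai against a floor of 3 counts over the group. One Kauai pool without a read stood beside pools with many, so the groups overlapped and the gene was not DE (adjusted p = 0.0915). MSTRG.16196 had 193, 129 and 242 read pairs in Kauai and 1, 2 and 0 in Mangaia. It was the only one of the 4 genes whose groups did not overlap, with a ratio of counts of 214 (95% counting interval 72.8 to 1040) and adjusted p-values of 0.0795 in all 18 libraries and 0.00124 in the 6 uninfested libraries (edgeR quasi-likelihood test).

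The other two genes were uneven among the Kauai pools. MSTRG.16627 had 240, 328 and 1 read pairs in Kauai and 0, 2 and 1 in Mangaia (ratio 216, 95% counting interval 73.5 to 1050, adjusted p = 0.154). MSTRG.10396 had 168, 0 and 69 in Kauai and none in Mangaia, at least 89.9-fold higher (adjusted p = 0.213). For these genes, pools of 1 population thus differed from each other by as much as the populations did.

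In infested crickets no Kauai pool was empty for MSTRG.575, while each of the other genes had pools with many and pools with few or no reads. MSTRG.575 had 448, 943 and 945 read pairs at day 4 and 420, 2312 and 710 at day 7 in Kauai, where 8 of 9 libraries held more than 3 read pairs. Mangaia had none at day 4 and 20, 16 and 4 at day 7, and the day 7 difference was DE in all 18 libraries (adjusted p = 0.0436) and not without the 2 libraries that stood apart (adjusted p = 0.134, edgeR quasi-likelihood test). MSTRG.16196 had 511, 2 and 79 read pairs in Kauai at day 4 and at most 5 in any of the 9 Mangaia libraries, with adjusted p-values of 0.0596 at day 4 and 0.0355 at day 7 (0.0544 and 0.12 without the 2 libraries). MSTRG.10396 was over 3 read pairs in 4 of 9 Kauai libraries and in none of 9 Mangaia libraries. Counts rest on uniquely mapped pairs, and how well reads of either population map to the reference at these genes was not tested.

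**Figure D4:**
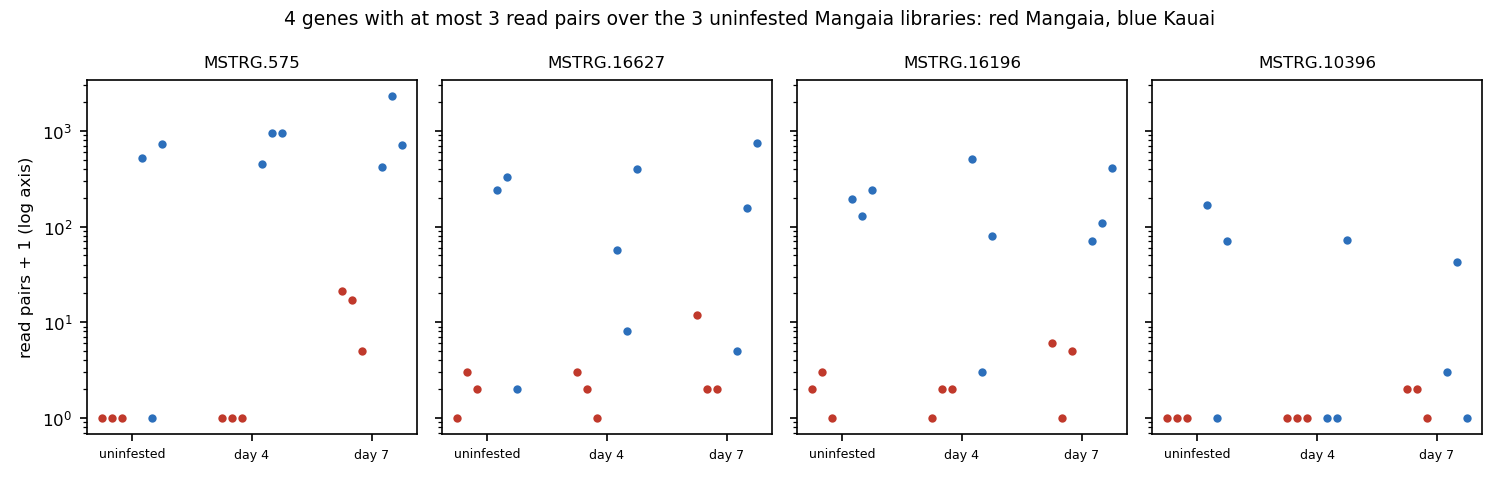
Read pairs plus 1 (y axis, log axis) in every library for the 4 genes that had at most 3 read pairs over the 3 uninfested Mangaia libraries, with Mangaia in red and Kauai in blue. Kauai libraries reach 2312 read pairs for MSTRG.575 and Mangaia libraries at most 20, while some Kauai libraries lie at or near 0 for each gene.

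The genes with the largest absolute differences in CPM had very high counts, and the 12 with the largest were not DE. The examples below were picked among these 12 after their values were seen. MSTRG.22301, with the largest difference, was at 22170 ± 8830 CPM in Mangaia and 41350 ± 23900 CPM in Kauai (SD, n = 3 each). Its pools overlapped. In MSTRG.4435, MSTRG.4432, MSTRG.4429 and MSTRG.9788 all Kauai pools lay above all Mangaia pools, as for 13.5% of all genes. The other genes of the 12 overlapped. MSTRG.4435 was at 11250, 10760 and 13280 CPM in Mangaia and at 38970, 29060 and 23250 CPM in Kauai (log2 difference 1.37, adjusted p = 0.441). MSTRG.4432 was above its Mangaia range in each Kauai pool as well, at 7224 ± 490 CPM (SD, n = 3) against 3402 ± 340 CPM (SD, n = 3), with an adjusted p of 0.523. MSTRG.4429 averaged 5251 ± 1920 CPM in Kauai against 1725 ± 294 CPM in Mangaia (SD, n = 3 each) (adjusted p = 0.325). These genes varied widely in infested crickets. MSTRG.4435 had 172 to 7421 CPM among Mangaia day 7 pools, 2610 to 7421 CPM without library 2 that stood apart, and 20200 to 29070 CPM among Mangaia day 4 pools, above 2 of the 3 Kauai day 4 pools (10260, 11230 and 25600 CPM).

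Immune genes were examined through the 53 genes that the study lists with product names, which were picked for their response to infestation in these samples. That response was measured against the same uninfested libraries, so the counts here are a description and are not independent of how the list was chosen. None of the 53 was DE between uninfested populations (edgeR quasi-likelihood test, 0.0421% of all genes called). At an unadjusted p under 0.05 there were 16 (30.2%, against 14.9% of all genes), 6 higher in Kauai and 10 higher in Mangaia. The likelihood ratio test and DESeq2 each called 2 of the 53, and limma voom none. The fitted level was lower in Kauai for 35 and higher for 18, with a median log2 difference of -0.28 against -0.01 over all genes. The split was 32 to 21 with RLE factors and 39 to 14 with library size alone. The groups did not overlap for 18 of the 53 genes, 12 with Mangaia above and 6 with Kauai above, beside 26.7% of all genes.

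Phenoloxidases, the enzymes of melanization, had 5 of 7 genes with a lower fitted level in Kauai (6 with library size alone), beside 12110 of 23748 genes tested. In that direction 3 of the 7 had an unadjusted p under 0.05 (edgeR quasi-likelihood test), as had 8.38% of all genes. The median log2 difference of the group was -0.68. The gene nearest to the threshold was MSTRG.17307, a prophenoloxidase (PPO). It was at 36.6, 36.5 and 32.8 CPM in Mangaia and at 22.1, 18.6 and 18.7 CPM in Kauai, 1.78-fold higher in Mangaia, with a log2 difference of -0.83 (SE 0.180, adjusted p = 0.0811). The pools did not overlap, with Mangaia above, as for 13.2% of all genes. The adjusted p was 0.0274 by the likelihood ratio test and 0.0135 by DESeq2. By the edgeR quasi-likelihood test it was 0.047 in the 6 uninfested libraries and 0.046 without the 2 day 7 libraries that stood apart. The gene passed in 5 of 17 alternative runs, and in none of the 6 that left out 1 uninfested library (adjusted p = 0.123 to 0.342, edgeR quasi-likelihood test). Its differences in infested crickets were smaller, -0.15 at day 4 and -0.29 at day 7. At those stages its level was higher in both populations, from 57.7 to 90.7 CPM at day 4 and from 103 to 153 CPM at day 7.

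The other phenoloxidases fell on both sides. MSTRG.10990, named phenoloxidase 2-like, was at 8.55, 8.58 and 7.63 CPM in Mangaia and at 3.32, 5.10 and 2.73 CPM in Kauai (log2 difference -1.15, adjusted p = 0.184). MSTRG.10137, a phenoloxidase subunit A3, was at 47.4, 44.0 and 36.3 CPM in Mangaia and at 33.1, 22.5 and 22.7 CPM in Kauai (-0.71, adjusted p = 0.294). Neither passed the test. Their pools did not overlap, with Mangaia above, as for 13.2% of all genes. MSTRG.7273, phenoloxidase 2-like and the one with the most reads, averaged 69.7 ± 21.2 CPM in Mangaia against 72.4 ± 5.62 CPM in Kauai (SD, n = 3 each), a difference far below its standard error whose sign turned with library size scaling. The phenoloxidase-activating factors on the list, factor 2 isoforms X1 and X2, are MSTRG.6730 and MSTRG.18615. They had log2 differences of 0.11 (SE 0.258) and -0.14 (SE 0.193), and the first also turned sign under that scaling.

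Recognition and signalling genes had mostly lower fitted levels in Kauai, though none passed the test. The groups are small, and 12110 of all 23748 genes tested were lower in Kauai as well. Of the 3 peptidoglycan recognition proteins, protein LB (MSTRG.18424), which in *Drosophila* degrades peptidoglycan and dampens signalling, averaged 21.5 ± 2.39 CPM in Mangaia against 11.5 ± 2.61 CPM in Kauai (SD, n = 3 each) (log2 difference -0.91, adjusted p = 0.260). Protein SC2 (MSTRG.9040), the one with the most reads, averaged 268 ± 94.4 CPM in Mangaia against 214 ± 48.9 CPM in Kauai (SD, n = 3 each), a log2 difference below its standard error (-0.32, SE 0.412). Peptidoglycan recognition protein 2-like (MSTRG.22070) was nearly level, at 28.2 ± 4.50 CPM and 27.7 ± 4.13 CPM (-0.03, SE 0.212), and its sign turned with DESeq2, RLE factors and filterByExpr, and when any of 4 of the 6 uninfested libraries was left out. Toll-like receptors and their relatives all had a mean of 3.75 CPM or less over the 6 uninfested libraries, and 7 of 10 had lower fitted levels in Kauai (8 with library size alone). The one with the most reads, Toll-like receptor Tollo (MSTRG.7205), averaged 4.21 ± 1.90 CPM in Mangaia against 3.30 ± 1.32 CPM in Kauai (SD, n = 3 each). Toll-like receptor 6 (MSTRG.5414) averaged 3.08 ± 1.53 CPM against 1.13 ± 0.805 CPM (-1.44, SE 0.506, adjusted p = 0.211).

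Among 7 signalling proteins, 6 had lower fitted levels in Kauai (5 with RLE factors), beside 12110 of 23748 genes tested. The stimulator of interferon genes protein (MSTRG.18304), a sensor of cyclic dinucleotides, was at 49.2, 57.9 and 60.1 CPM in Mangaia and at 45.3, 36.0 and 26.1 CPM in Kauai (log2 difference -0.64, adjusted p = 0.305). Sterile alpha and TIR motif-containing protein 1 (MSTRG.12613), an adaptor of Toll-type signalling, averaged 57.6 ± 12.3 CPM in Mangaia against 39.7 ± 3.47 CPM in Kauai (SD, n = 3 each) (-0.54, adjusted p = 0.434). The exception with a higher level in Kauai was interleukin-1 receptor-associated kinase 1-binding protein 1 (MSTRG.6375), at 22.4, 18.8 and 19.4 CPM in Mangaia and 32.7, 48.6 and 61.7 CPM in Kauai. Its log2 difference of 1.24 had an adjusted p of 0.221, and of 0.0405 in the 6 uninfested libraries (edgeR quasi-likelihood test).

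Genes of metabolism and gene regulation on the list had mostly higher fitted levels in Kauai, beside 11601 of 23748 genes tested. Of 4 metabolic enzymes, 3 were higher. Adenosine deaminase (MSTRG.279), which removes adenosine, was at 0.395, 0.954 and 0.153 CPM in Mangaia and at 1.33, 2.39 and 4.25 CPM in Kauai (log2 difference 2.35, adjusted p = 0.159, and 0.0287 by the likelihood ratio test). Cytochrome b5 (MSTRG.23133), an electron carrier, was at 5.92, 4.50 and 4.58 CPM in Mangaia and at 7.97, 11.5 and 15.3 CPM in Kauai (1.21, adjusted p = 0.241). The enzyme lower in Kauai was phosphoacetylglucosamine mutase (TOG006979), of the pathway that supplies building blocks of chitin, at 2.24, 3.41 and 2.75 CPM in Mangaia against 0.664, 1.59 and 1.06 CPM in Kauai (-1.32, adjusted p = 0.155). The pools of these 3 enzymes did not overlap, as for 26.7% of all genes. Mitochondrial serine hydroxymethyltransferase (MSTRG.19162), the enzyme with the most reads, overlapped, at 40.4, 72.2 and 53.9 CPM in Mangaia and at 103, 46.7 and 67.3 CPM in Kauai (0.38, SE 0.445).

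Of 6 nuclear regulators, 4 had higher fitted levels in Kauai (3 with library size alone), and the median log2 difference of the group was 0.22. Both of the regulators with the most reads were lower in Kauai in fitted level. Microphthalmia-associated transcription factor (MSTRG.16997) averaged 18.2 ± 2.07 CPM in Mangaia against 14.6 ± 0.932 CPM in Kauai (-0.32, adjusted p = 0.441), and SET and MYND domain-containing protein 5 (MSTRG.22129) 11.9 ± 0.766 CPM against 11.1 ± 1.45 CPM (-0.10, SE 0.227). Transport and trafficking proteins were split evenly, 3 in each direction, and ADP-ribosylation factor 1 (MSTRG.21064), a regulator of vesicle budding, averaged 366 ± 32.7 CPM in Mangaia against 279 ± 14.2 CPM in Kauai (SD, n = 3 each) (-0.40, adjusted p = 0.246). The ryanodine receptor (MSTRG.23640), a calcium channel, averaged 18.4 ± 8.04 CPM against 11.2 ± 2.89 CPM (-0.72, adjusted p = 0.395). Among the remaining genes, tubulointerstitial nephritis antigen-like (MSTRG.3504) averaged 35.9 ± 7.46 CPM against 41.9 ± 6.80 CPM (log2 difference 0.23, SE 0.188), and AGAP011476-PA-like protein (MSTRG.23335) was at 12.1, 11.6 and 18.3 CPM in Mangaia and at 11.3, 4.94 and 2.43 CPM in Kauai (-1.17, SE 0.878). The genes MSTRG.17307, MSTRG.10990, MSTRG.18424, MSTRG.6375, MSTRG.279 and TOG006979 were chosen after their values were seen.

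**Figure D5:**
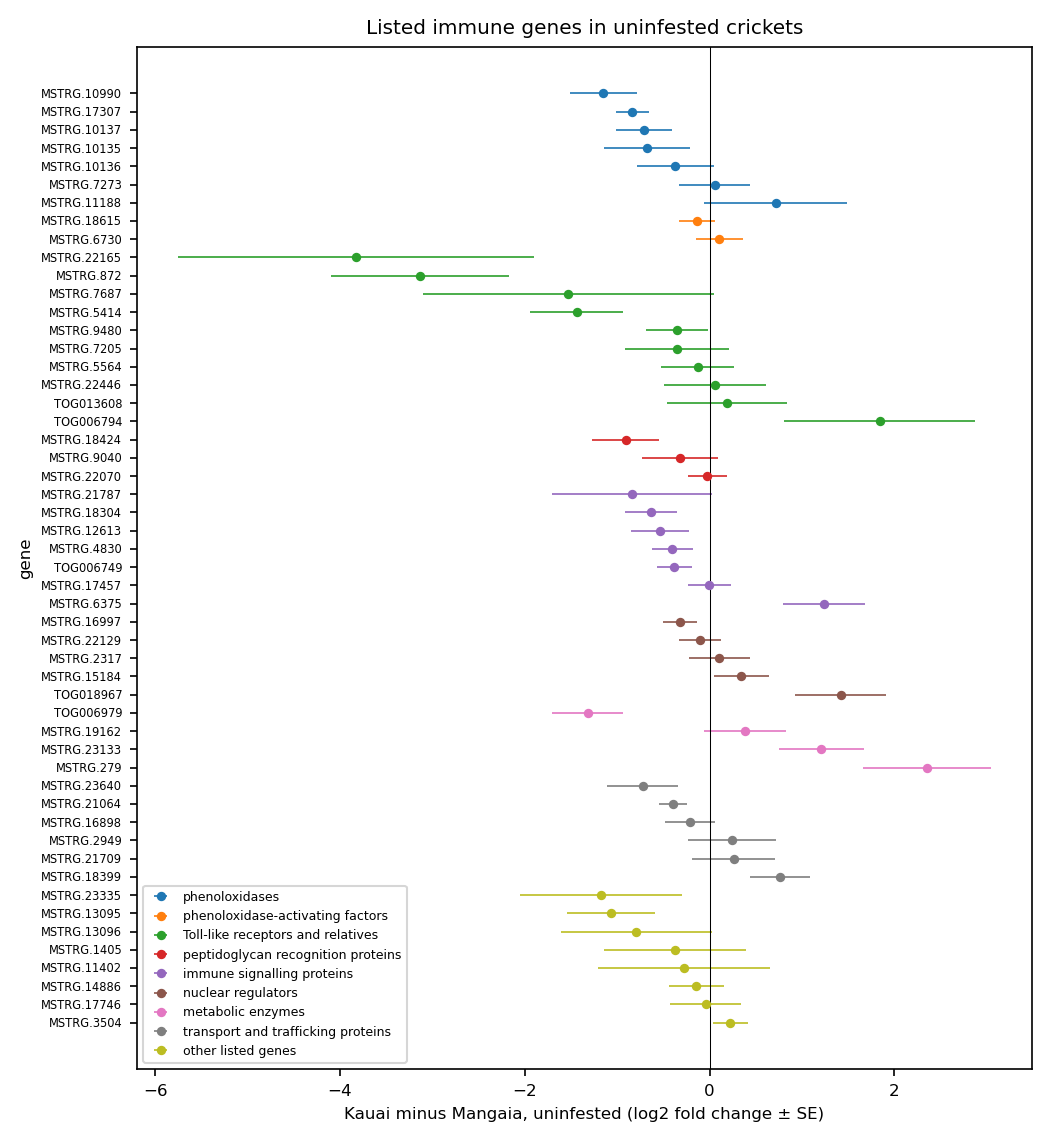
Kauai minus Mangaia log2 difference with its standard error (x axis) of 52 of the 53 listed immune genes in uninfested crickets, by gene (y axis) and coloured by the group to which its name assigns it. The phenoloxidases lie from -1.15 to 0.71 with 5 of 7 below 0, and the widest errors belong to receptors with few reads.

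Signs of the listed immune genes were compared between stages as well. Of the 53 genes, 26 had the same sign of the population difference at day 4 as in uninfested crickets and 21 at day 7, close to the shares of 52.6% and 44.5% over all genes, so nothing particular to the list is read from them. Among the 7 phenoloxidases the sign was the same for 5 at day 4 and for 3 at day 7.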

How the data were processed

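The authors trimmed reads with Trimmomatic 0.33, aligned pairs in 2 passes with STAR 2.5.3a, merged splice junctions with StringTie 1.3.4d and deposited raw read counts per gene for 32729 genes, uniquely mapped pairs only. Unstranded counts were used here, so overlapping genes on opposite strands cannot be told apart. The 4 summary rows (unmapped, several places, no gene, more than 1 gene) were left out of library sizes, and pairs in genes made up 68.5% to 71.0% of uninfested libraries. A gene was tested if 2 or more libraries reached 1 CPM, with the quasi-likelihood test of edgeR 4.0.16 (R 4.3.3, TMM factors) in 1 model of the 6 groups. Standard errors are the absolute log2 difference divided by the square root of F. Its p-values rest on the spread between pools within groups, which was estimated over all 6 groups and not from the uninfested pools alone. Other tests (voom in limma 3.58.1, DESeq2 1.42.0 and the edgeR likelihood ratio test) were run as alternatives, as were other scalings, filters and libraries, the replicate number as a block, and leaving out each library. Fits without all or 2 of the day 7 libraries, and of uninfested and infested libraries apart, were added after results were seen. The pseudo-F (PERMANOVA) used Bray-Curtis dissimilarity of CPM and was computed over every assignment. Replicates were checked for duplicates by their counts, and none were found. Scripts were tested on simulated data.

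The comparison, gene lists and rules were chosen with earlier results of these data known. The genes named are the DE genes, the 1 or 2 most abundant genes of each immune group, the genes with reads in 1 population, and those named as chosen later. Names come from the study's list and rest on similarity to proteins of other species. Genes with near-identical copies lose the pairs they share. One listed gene is counted in its group and not reported here by itself.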

Additional observations from a re-analysis of the deposited data

Results flagged for a closer look

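The population difference of 4 DE genes changed between uninfested and day 7 crickets in the interaction test of edgeR (quasi-likelihood, adjusted p = 0.0335, 0.0335, 0.0335 and 0.045 in the order given). The day 7 log2 difference minus the uninfested one was 3.10 for MSTRG.9243, 2.14 for MSTRG.691, 1.81 for MSTRG.8464 and 1.06 for MSTRG.10249. The adjusted p-values were 0.0628 to 0.0811 without Mangaia day 7 library 2 and Kauai day 7 library 1.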

How the results depend on the processing

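The 10 DE genes became 513 (274 higher in Kauai) by the likelihood ratio test, 634 (393) by DESeq2, 374 (35) with library size alone, 415 (277) with only the 6 uninfested libraries, 232 (170) with uninfested and day 4 libraries, 241 (152) without 2 day 7 libraries and 0 at an FDR of 0.01. Leaving out each uninfested library gave 0 to 4. Limma voom (15), RLE factors (7), no filter (7), filterByExpr (10) and a minimum of 2-fold (10) stayed within 1.5 times. The replicate block gave 3, all higher in Mangaia, but same-numbered libraries did not deviate together (correlations -0.272 to -0.109), so the numbers do not pair them. The immune genes called went from 0 to 2 by the likelihood ratio test, DESeq2, library size alone and the 6 libraries alone, to 1 without 2 day 7 libraries, and stayed at 0 without each uninfested library. The share of DE genes with the same sign at day 4 was 100% with RLE factors, no filter and the replicate block, and 51.4% for genes and differences from separate fits. At day 7 it was 34.0% with library size alone and 33.3% with the block. Leaving out each library gave 100% at day 4 and 0% to 100% at day 7, over at most 4 genes and none without Kauai library 1 or 3. Genes with reads in 1 population numbered 2 with 0 reads allowed, 12 from 5 CPM and 3 to 7 without each library. The change by day 4 passed for 2 of the 10 genes by the likelihood ratio test and by DESeq2, and for 0 without each library. The change by day 7 passed for 0 with the block or without 2 day 7 libraries, and for 0 to 4 without each library. The pseudo-F was 2.55 to 3.52 without each library. Signs turned for MSTRG.7273 (-0.14) and MSTRG.6730 (-0.10) with library size alone and for MSTRG.22070 with DESeq2 (0.064), RLE factors (0.065) and filterByExpr (0.011). Without each library the differences were -0.094 to 0.34 for MSTRG.7273, -0.27 to 0.035 for MSTRG.18615, -0.16 to 0.35 for MSTRG.6730, -0.59 to 0.11 for MSTRG.7205, -0.48 to 0.025 for MSTRG.9040 and -0.13 to 0.081 for MSTRG.22070. The causes were not tested.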
